A study of Homo sapiens with 12 samples.

Results

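The comparison described here is that of Jurkat cells given the histone demethylase inhibitor GSK-J4 with Jurkat cells given its vehicle. Its members were chosen by their labels: they are 4 of the 12 libraries of the series, 2 labelled J4-control (DMSO in the medium for 72 h) and 2 labelled J4-2uM (GSK-J4 at 2 µM for 72 h). All 4 came from Jurkat, an established human T-cell acute lymphoblastic leukaemia line, grown in serum-supplemented RPMI. A pair of further comparisons serves as reference and shares no library with this one. In these, Jurkat derivatives with a doxycycline-inducible shRNA against UTX or TAL1, selected with blasticidin and G418, were left without doxycycline (UTX-control, TAL1-control) or received 5 µg/ml for 72 h (UTX-KD, TAL1-KD), 2 libraries each. The libraries were stranded mRNA libraries. The labels do not state whether the replicates of a group were separate cultures, so each p-value sets a difference against how far these particular libraries lay apart, and that distance may be only technical. A single dose and a single time were sampled.

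As background, KDM6A (UTX), KDM6B (JMJD3) and UTY form the KDM6 family of JmjC-domain proteins, of which the first pair remove methyl groups from lysine 27 of histone H3, the repressive mark set by Polycomb repressive complex 2, while UTY has little such activity. JmjC enzymes use iron, oxygen and oxoglutarate. GSK-J4 is an ester that enters cells and is cleaved to an acid, GSK-J1, which occupies the oxoglutarate site and holds the active-site metal. It was designed against KDM6 enzymes, and activity on related JmjC enzymes, KDM5 among them, is known.

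Each library held between 55524079 and 75547934 reads counted to genes. The replicates lay close together: the biological coefficient of variation was 2.69%, and the standard deviation of the log2 difference between replicates over genes was 0.13 with vehicle and 0.15 with GSK-J4. All 10 T-cell markers were detected in every library, with a summed level of 2289 and 2290 CPM (the usual depth-scaled read count, with library sizes adjusted by the trimmed mean of M-values, TMM) with vehicle and 2235 and 2196 CPM with GSK-J4. Of these 10, 6 fell, CD247 (-0.83) and CD3G (-0.62) the most, and 3 rose, CD5 (0.47) the most (4 and 5 under total-count scaling). The summed markers of each other cell type lay below the T-cell sum and were higher with the drug. The myeloid sum went from 3.03 and 3.05 to 5.77 and 5.23 CPM, with 2 of 5 tested members higher. The B-cell sum went from 87.5 and 89.6 to 144 and 136 CPM, with 4 of 5 higher (2 without the first GSK-J4 library), and nearly all of it was CD79A (39.5 and 39.6 CPM against 92.0 and 83.7 CPM) and CR2. The NK sum went from 6.41 and 6.12 to 12.7 and 11.3 CPM, with 4 of 4 tested members higher. The erythroid sum was 3.97 and 3.08 against 7.34 and 7.69 CPM, mostly from ITGA2B, and the fibroblast and epithelial sum 6.98 and 6.73 against 11.7 and 12.1 CPM, mostly from COL1A1. Their part in the results was not tested. In bulk RNA, a different number of cells of a type and a different amount of RNA per cell cannot be told apart.

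Of 17907 genes tested, 6794 were higher with GSK-J4 and 6616 lower by edgeR's quasi-likelihood test with a Benjamini-Hochberg adjusted p under 0.05. These are 37.9% and 36.9% of the genes tested, the background against which every count below is to be read. Most changes were modest: the median log2 fold change was 0.58 among the higher genes and -0.56 among the lower ones. At an absolute log2 fold change of at least 1 there were 1770 higher and 1618 lower genes, and at 2 or more 410 and 332. The median over all genes tested was 0.01. Scaling by total counts instead of TMM moved that median to 0.18 and the split to 8652 higher and 4947 lower, so that 63.6% rather than 50.7% of calls were higher, and all changes below are relative to the TMM scale.

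The direction of the large changes differed by class of gene. Of 13428 protein-coding genes tested, 1316 (9.80%) were higher by at least 1 log2 unit and 769 (5.73%) lower. Long non-coding RNA genes had the opposite balance: of 2538 tested, 270 (10.6%) were higher and 563 (22.2%) lower by this measure, and their median log2 fold change was -0.23. Among 1299 pseudogenes these shares were 9.47% and 13.9%. With the genes split by mean level into 4 classes of equal size, the 4477 most abundant had 36.3% higher and 49.7% lower calls, with 2.21% higher and 5.25% lower by at least 1 log2 unit, while the 3 other classes had more higher than lower calls.

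**Figure D1:**
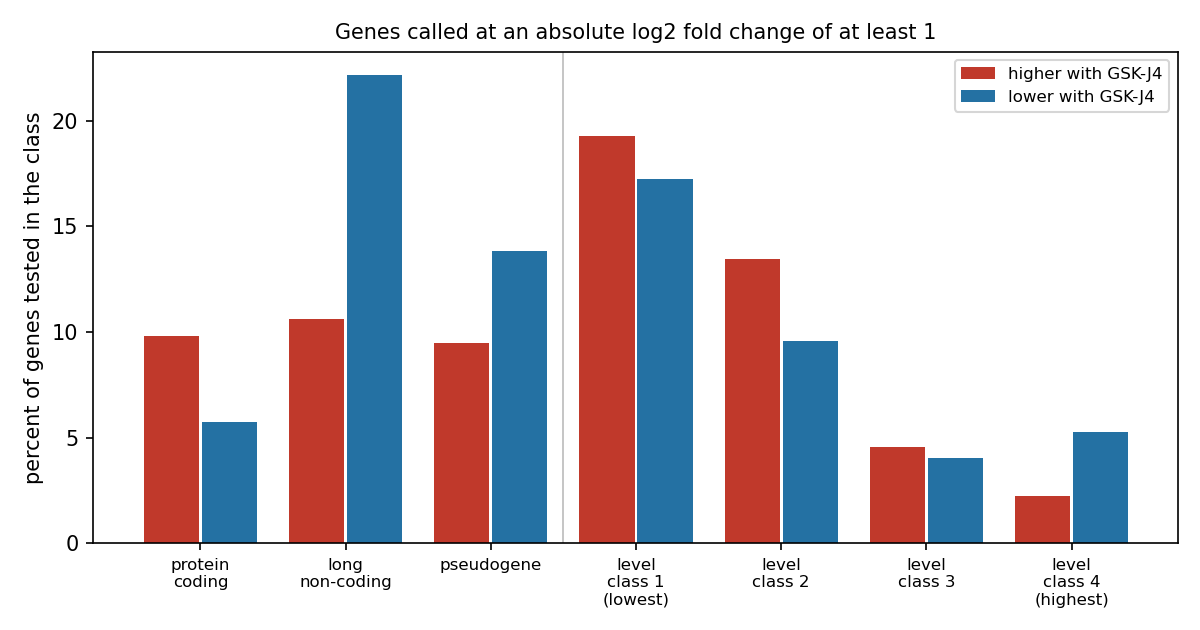
Percent of genes tested (y axis) that were called and higher (red) or lower (blue) with GSK-J4 by at least 1 log2 unit, by gene type and by class of mean level over the 4 libraries, from 1 (lowest) to 4 (x axis). Long non-coding genes were lower in 22.2% and higher in 10.6%, and protein-coding genes lower in 5.73% and higher in 9.80%.

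The transcripts of the KDM6 genes were themselves higher. KDM6A stood at 42.9 and 42.4 CPM with vehicle and 57.4 and 58.7 CPM with GSK-J4, KDM6B at 152 and 151 against 199 and 198 CPM, and UTY at 32.1 and 32.9 against 52.1 and 54.5 CPM. In each of these 3 genes both drug libraries lay above both vehicle libraries. KDM6B rose by 0.39 on the log2 scale (SE 0.032, edgeR adjusted p = 1.09e-07). Of 8 tested genes of the MLL3/4 methyltransferase complexes, with which KDM6A associates, RBBP5 (0.41) and DPY30 (0.22) rose, PAXIP1 (-0.42) and WDR5 (-0.16) fell, and the methyltransferase genes KMT2C (0.09) and KMT2D (0.08) did not pass. In the list of KDM6 genes and these partners together, 5 rose and 2 fell of 11, and 9 rose and 1 fell under total-count scaling. Of 20 other JmjC demethylase genes 12 fell and 3 rose (8 and 6 under total-count scaling), with a median log2 fold change of -0.19. The lowest were KDM8 (-1.37), RIOX2 (-1.12), a nucleolar enzyme, and KDM4B (-0.92), while PHF2 (0.75) and PHF8 (0.43) were higher.

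Genes of the Polycomb machinery went in both directions. Of 23 tested, 9 rose and 10 fell (14 and 5 under total-count scaling). In the PRC2 group 8 of 11 fell, by at most 0.40 on the log2 scale (PHF19), and the catalytic subunit EZH2 had 215 and 217 CPM with vehicle and 209.7 and 214 CPM with the drug, a log2 fold change of -0.03 (95% interval -0.10 to 0.04) that did not pass. The 2 that rose in this group were PHF1, a reader subunit that helps place PRC2, at 67.6 and 68.4 against 196 and 196 CPM (1.53, SE 0.033, edgeR adjusted p = 4.75e-13), and EZH1, the alternative catalytic subunit (0.63). In the PRC1 group 7 of 12 rose, among them PHC1 (0.89), PHC3 (0.88) and PCGF1 (0.80), and 2 fell, BMI1 (-0.24) and RNF2 (-0.34). HOX cluster genes, classical Polycomb targets that pattern the body axis, had no shared direction: of 26 tested, 11 rose and 8 fell, with a median of 0.07. Levels were low. HOXB9 was counted 46 and 40 times with vehicle and 531 and 460 times with GSK-J4 (3.26, SE 0.15), and HOXB5, with 2 and 3 against 30 and 35 counts, moved the same way. In the opposite direction, HOXD12 fell from 53 and 88 to 19 and 24 counts (-1.96, SE 0.24).

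Genes of the NF-kB pathway rose almost throughout. NF-kB dimers of REL-family subunits are held in the cytoplasm by IkB proteins until these are degraded, and several subunits and inhibitors are themselves targets. All 5 subunit genes rose. RELB, the activating subunit of the non-canonical arm, stood at 8.39 and 7.29 CPM with vehicle and 88.6 and 83.0 CPM with GSK-J4. The drug libraries lay far above the vehicle libraries with no overlap. Its log2 fold change was 3.46 (SE 0.059, edgeR adjusted p = 6.32e-14). NFKB2, which encodes its p100/p52 partner, went from 57.1 and 57.2 to 210.0 and 206 CPM (1.86), against 0.67 for RELA, 0.54 for REL and 0.28 for NFKB1.

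Among the IkB-type inhibitors and feedback regulators, 9 of 10 tested rose and 0 fell, NFKBIZ (-0.01) being the member that did not pass. BCL3, a nuclear IkB protein that acts with p50 or p52, was at 1.09 and 0.943 CPM with vehicle and 13.7 and 13.1 CPM with the drug (3.73, SE 0.10, edgeR adjusted p = 3.28e-12). TNFAIP3 (A20), the deubiquitinase that shuts the pathway off, was at 63.8 and 60.8 against 274 and 267 CPM (2.12), NFKBIB at 44.3 and 44.3 against 128 and 123 CPM, and NFKBIA, the main IkB, rose by 1.24 on the log2 scale. Upstream, 5 of 8 tested signalling genes rose, with BIRC3 at 1.38 and TRAF2 at 1.08. TRAF3 (-0.46), which restrains non-canonical signalling, and IKBKB (-0.15) fell. Of 23 tested genes in all 3 groups, 19 rose and 2 fell (1 under total-count scaling), with a median of 0.54.

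Of 18 tested genes described as NF-kB targets, 14 rose, 3 fell and the median was 0.99. The largest change was that of CXCL10, a chemokine that draws activated T cells, which was almost silent with vehicle (1 and 5 counts) and had 126 and 95 counts with GSK-J4 (4.89, SE 0.36, edgeR adjusted p = 3.61e-08). LTB, lymphotoxin beta, a ligand of the non-canonical arm, went from 1.16 and 0.873 to 8.40 and 8.18 CPM (3.05), and the costimulatory ligand CD70 from 19.4 and 19.7 to 97.2 and 97.7 CPM (2.32). The 3 targets that fell were CD83 (-0.47), BCL2L1 (-0.30) and SOD2 (-0.11).

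The promoter sequences of RefSeq (GRCh38.p14) are shown for members with a match to the NF-kB site consensus, because they let the induced genes be set beside the motif. The bases before the start are given 5′ to 3′ on the gene's strand, with matches on either strand in capitals. NFKBIA is at chr14:35404750-35404929 (minus strand), TNFAIP3 at chr6:137867079-137867258 (plus), CXCL10 at chr4:76023498-76023677 (minus) and HLA-B at chr6:31357180-31357359 (minus).
NFKBIA: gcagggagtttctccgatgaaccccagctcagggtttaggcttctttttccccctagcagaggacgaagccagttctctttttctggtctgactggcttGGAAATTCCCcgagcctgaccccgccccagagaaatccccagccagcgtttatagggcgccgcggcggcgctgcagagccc
TNFAIP3: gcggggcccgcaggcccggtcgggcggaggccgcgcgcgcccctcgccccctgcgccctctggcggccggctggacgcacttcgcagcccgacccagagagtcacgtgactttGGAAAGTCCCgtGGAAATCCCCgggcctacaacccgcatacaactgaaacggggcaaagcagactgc
CXCL10: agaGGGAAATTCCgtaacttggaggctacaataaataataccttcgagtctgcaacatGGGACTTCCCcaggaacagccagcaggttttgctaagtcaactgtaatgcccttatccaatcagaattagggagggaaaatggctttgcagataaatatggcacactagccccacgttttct
HLA-B: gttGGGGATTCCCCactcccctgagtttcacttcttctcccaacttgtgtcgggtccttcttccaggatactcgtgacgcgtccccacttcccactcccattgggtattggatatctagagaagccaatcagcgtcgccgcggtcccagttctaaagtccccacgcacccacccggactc
Matches that overlap, as in HLA-B, are counted separately. Within the 250 bases before the start, the consensus had a match in 5 of 17 promoters of the higher genes of the subunit and regulator list, in 5 of 10 of the higher target genes and in 2614 of all 27305 promoters (9.57%). In the subunit and regulator list it also matched the 1 lower gene with a promoter entry, TRAF3, and 1 of 2 that did not pass, NFKBIZ, and it matched 0 of 3 lower targets. HLA-B belongs to the interferon and antigen presentation list described below. There it matched 9 of 21 higher genes, 1 of 5 lower genes and 1 of 4 that did not pass. Over all genes the share was 11.8% for those higher with GSK-J4, 10.9% for those lower and 12.1% for those that did not pass. A match is a description of letters and not a binding site. RELB has no entry in the promoter table used here.

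Antigen presentation genes were mostly higher. HLA class I molecules carry peptides, loaded through the TAP transporter, to the cell surface with beta-2 microglobulin. HLA-B stood at 233 and 232 CPM with vehicle and 1195 and 1175 CPM with GSK-J4 (2.35, SE 0.033, edgeR adjusted p = 7.54e-15). HLA-E, a ligand of NK-cell receptors, was at 68.3 and 67.8 against 295 and 298 CPM (2.12). HLA-F (2.07) and HLA-C (1.55) rose as well, as did B2M (1.13) and TAP1 (1.00). Reads of these near-identical HLA genes can be assigned to each other, so the split between them is uncertain. The immunoproteasome genes went different ways, PSMB9 at 0.86 and PSMB8 and PSMB10 at -0.21 and -0.52, and CIITA, the class II regulator, did not pass (-0.32).

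Of 28 interferon-stimulated genes tested 19 rose and 5 fell, and of 14 antigen presentation genes 9 rose and 2 fell. IRF7, a master regulator of type I interferon, went from 13.2 and 12.2 to 70.5 and 69.8 CPM (2.48, SE 0.046, edgeR adjusted p = 1.39e-13), and IFIT3 (1.59), IFIT2 (1.23) and IRF9 (1.21), a subunit of the factor that drives these genes, rose too. OAS2 (-1.20), RSAD2 (-0.72), IFIT1 (-0.47) and BST2 (-0.45) fell, and ISG15 rose by only 0.09. Of 42 tested interferon and antigen presentation genes, 28 rose and 7 fell, with a median of 0.68. Among cytokine and TNF-family receptors 14 of 25 rose and 7 fell: IL10RA (1.79), IL2RA (1.74), IL4R (1.47) and IL27RA (1.46) were higher, and CD40LG, a ligand kept in this list, (-1.84), TNFRSF8 (-1.78), TNFRSF4 (-1.67) and the thymocyte survival receptor IL7R (-1.13) were lower.

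**Figure D2:**
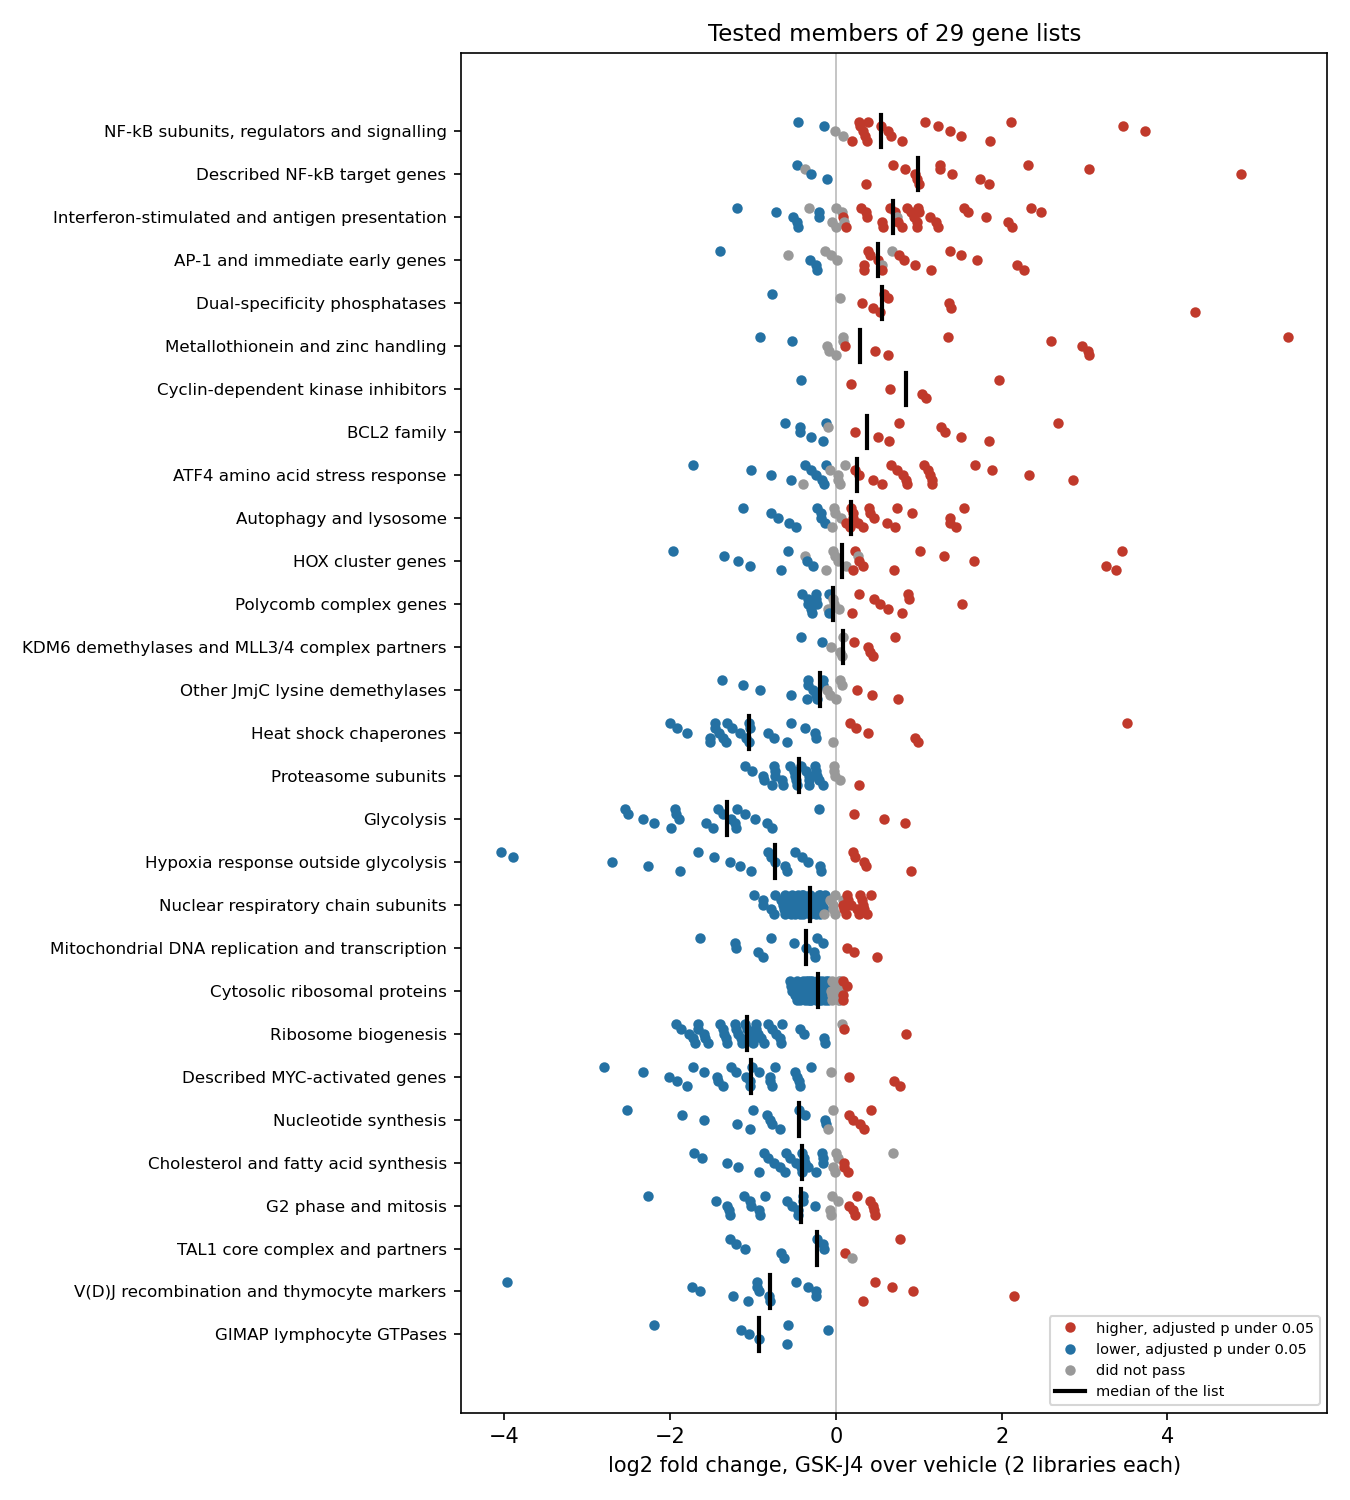
Log2 fold change, GSK-J4 over vehicle (x axis), of each tested member of 29 gene lists (rows). Red and blue points passed edgeR's quasi-likelihood test at an adjusted p under 0.05 as higher or lower, grey points did not, and black bars are list medians, which run from -1.31 for glycolysis to 0.99 for described NF-kB targets.

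AP-1 and stress-kinase feedback genes rose together with NF-kB genes. AP-1 is the dimer of JUN, FOS and ATF proteins, and dual-specificity phosphatases switch off the MAP kinases that activate it. JUN was at 15.9 and 17.0 CPM with vehicle and 77.0 and 72.5 CPM with the drug (2.18), and ATF3, a stress-induced member, at 14.3 and 14.4 against 72.5 and 66.0 CPM (2.27). JUND (1.38) and FOS (1.15) were also higher. Of 25 tested AP-1 and immediate early genes, 15 rose and 4 fell (18 and 1 under total-count scaling), the lowest being EGR1 (-1.39). DUSP8, a phosphatase of the JNK and p38 kinases, was at 1.77 and 1.73 CPM in the vehicle libraries and 36.1 and 34.6 CPM in the drug libraries. It was 20.2-fold higher (4.34, SE 0.073, edgeR adjusted p = 5.38e-14). DUSP16 (1.39) and DUSP10 (1.37), which act on the same kinases, rose as well. In all, 8 of 10 tested DUSP genes were higher (5 by DESeq2's Wald test), and DUSP2 (-0.76) was lower; DUSP6 (0.58) and DUSP9 (0.62) did not pass DESeq2's Wald test (adjusted p = 0.0969 and 0.102).

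Metallothionein genes and the zinc exporter gene rose strongly. Metallothioneins are small cysteine-rich proteins that bind zinc, copper and cadmium, and the zinc exporter SLC30A1 (ZnT1) is induced with them by the metal-sensing factor MTF1. MT2A stood at 23.3 and 24.5 CPM with vehicle and 221 and 153 CPM with GSK-J4 (2.97, SE 0.13, edgeR adjusted p = 2.73e-10). MT1X was at 4.65 and 5.14 against 47.6 and 34.1 CPM (3.05), and MT1F at 1.58 and 0.915 against 11.4 and 8.38 CPM (3.04). In these 3 genes the first drug library was higher than the second, and both lay far above the vehicle libraries. MT1E was counted once in each vehicle library and 67 and 50 times in the drug libraries, a ratio of 48.8 between depth-scaled sums with an exact 95% counting interval of 13.2 to 407. Copies of this family are alike in sequence and can share reads.

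SLC30A1 went from 17.1 and 15.6 to 100.0 and 97.2 CPM (2.60, SE 0.046, edgeR adjusted p = 8.35e-14), and here the drug replicates were close. MTF1 itself did not pass (-0.10). Other zinc transporter genes moved less: SLC39A7 (0.64) and SLC39A1 (0.47) rose, while SLC30A6 (-0.91) and the importer SLC39A10 (-0.53) fell. All 4 tested metallothionein genes rose, with a median of 3.05, and 9 of 16 in the whole list rose and 2 fell (4 fell under DESeq2's size factors). MT1E, with 1 count in each vehicle library, passed the expression filter through the drug libraries alone, so its rise was fixed by the filter. The remaining 5 metallothionein genes of the list (MT1A, MT1G, MT1H, MT1M and MT3) had too few reads to be tested.

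Promoters of this group are shown because the metal response element has a known core, TGCACNC or TGCGCNC, through which MTF1 acts. Capitals mark matches on either strand in the 180 bases before the start, MT2A at chr16:56608404-56608583 (plus strand), MT1X at chr16:56682290-56682469 (plus) and SLC30A1 at chr1:211579162-211579341 (minus), from RefSeq GRCh38.p14.
MT2A: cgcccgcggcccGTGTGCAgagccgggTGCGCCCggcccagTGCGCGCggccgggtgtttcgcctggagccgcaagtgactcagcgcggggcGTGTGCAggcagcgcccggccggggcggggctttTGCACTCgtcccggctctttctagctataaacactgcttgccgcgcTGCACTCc
MT1X: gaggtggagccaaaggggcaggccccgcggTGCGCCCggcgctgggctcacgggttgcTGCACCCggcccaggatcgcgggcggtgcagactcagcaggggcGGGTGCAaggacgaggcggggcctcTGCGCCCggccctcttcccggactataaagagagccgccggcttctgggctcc
SLC30A1: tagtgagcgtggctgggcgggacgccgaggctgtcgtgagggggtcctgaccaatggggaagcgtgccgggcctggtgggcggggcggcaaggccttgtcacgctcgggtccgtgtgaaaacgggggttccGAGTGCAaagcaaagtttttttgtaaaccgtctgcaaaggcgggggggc
MT2A holds 6 matches in this stretch, MT1X 4 and SLC30A1 1. The core occurred in 5 of 7 promoters of the higher genes of the list, in 1 of 2 of the lower ones (SLC30A6), in 0 of 4 of those that did not pass, and in 24.7% of all 27305 promoters, counted over the 250 bases before each start. Over all genes the share was 31.9% for those higher with GSK-J4, 33.8% for those lower and 32.1% for those that did not pass. MT1E and MT1F, which also rose, have no entry in the promoter table used here.

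Iron genes showed no single direction, with 6 higher and 6 lower of 13 (7 and 4 under total-count scaling). HMOX1, heme oxygenase, which frees iron from heme, was counted 0 and 2 times with vehicle and 27 and 23 times with GSK-J4 and was called higher. The ferritin genes FTL (590.3 and 596 against 941 and 873 CPM, 0.61) and FTH1 (0.62), which encode the iron store, were higher, and the transferrin receptor TFRC (-0.47) and IREB2 (-0.57), an iron-sensing regulator, were lower. Ferritin genes have many processed pseudogenes that can share their reads.

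Heat shock chaperone genes fell, with exceptions. These proteins fold new and damaged proteins, and heat shock factor 1 induces many of them through heat shock elements. Of 31 tested, 24 fell and 6 rose, with a median of -1.05. The constitutive chaperone HSPA8 was at 1592 and 1684 CPM with vehicle and 432 and 389 CPM with the drug (-1.996, SE 0.048, edgeR adjusted p = 1.10e-12). The mitochondrial pair HSPD1 (-1.92) and HSPE1 (-1.79), HSPH1 (-1.52) and HSP90AB1 (-1.51) fell likewise, as did all 8 subunit genes of the cytosolic chaperonin, between -1.45 (CCT4) and -0.54 (CCT8). The strictly inducible gene HSPA6 went the other way, from 1.77 and 1.46 to 19.9 and 16.5 CPM (3.51, SE 0.12, edgeR adjusted p = 2.15e-11). HSPA1B (0.99) and HSPA1A (0.96), near-identical copies that can share reads, rose by about 1 log2 unit.

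The promoters of HSPA6 (chr1:161524360-161524539, plus strand) and HSPA8 (chr11:123062137-123062316, minus strand; RefSeq GRCh38.p14) are set side by side because both hold a heat shock element while the transcripts moved in opposite directions. The element searched was 3 alternating GAA units with 2 free bases between them, on either strand, and it is in capitals.
HSPA6: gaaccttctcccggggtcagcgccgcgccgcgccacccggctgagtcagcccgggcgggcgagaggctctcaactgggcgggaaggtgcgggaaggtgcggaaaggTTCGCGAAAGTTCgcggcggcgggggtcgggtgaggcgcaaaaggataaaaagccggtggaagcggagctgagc
HSPA8: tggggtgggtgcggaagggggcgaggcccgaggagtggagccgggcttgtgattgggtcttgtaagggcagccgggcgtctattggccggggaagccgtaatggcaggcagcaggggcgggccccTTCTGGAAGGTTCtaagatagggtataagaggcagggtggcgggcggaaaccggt
This strict form occurred in 1 of 5 promoters of the higher chaperone genes, in 3 of 22 of the lower ones and in 0.439% of all promoters over 250 bases. Over all genes the share was 0.302% for those higher with GSK-J4, 0.304% for those lower and 0.404% for those that did not pass.

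Other stress programmes were divided. In the ATF4 list as a whole 18 of 34 genes rose and 10 fell (23 and 6 under total-count scaling). In the integrated stress response, the regulatory genes were higher: PPP1R15A (GADD34), which restores translation, was at 24.6 and 25.9 CPM with vehicle and 186 and 182 CPM with the drug (2.86, SE 0.040, edgeR adjusted p = 6.50e-15), and ATF5 (2.33), DDIT3 (CHOP, 1.88) and TRIB3 (1.67) rose too, although ATF4 mRNA fell (-0.24). The amino acid enzymes controlled by ATF4 did not share this: of 14 tested, 4 rose, among them ASNS (1.14), and 5 fell, and the serine synthesis genes PHGDH (0.03), PSAT1 (-0.08) and PSPH (0.03) did not pass. DDIT4, an mTOR inhibitor that also responds to hypoxia, was lower (-1.73).

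Endoplasmic reticulum chaperone genes were divided, 8 higher and 8 lower of 18, with HSPA5 (BiP) at -0.05 and not called. With the unfolded protein response genes included, 11 rose and 9 fell of 22 (13 and 4 under total-count scaling). In the NRF2 and thiol redox list 13 of 22 fell and 6 rose. PRDX1 (-1.61), TXNRD1 (-0.65), NQO1 (-0.34) and the pentose phosphate genes TKT (-0.85) and TALDO1 (-0.90) were lower. SLC48A1 (0.91) and the cystine transporter gene SLC7A11 (0.67) were higher. HMOX1, given above with the iron genes and with few reads, is also in this list and was higher. Proteasome subunit genes were nearly uniformly lower, 25 of 30 with 1 higher (21 and 5 under total-count scaling, 2 higher without the second GSK-J4 library), and a median of -0.44. Autophagy genes leaned the other way: of 15 tested, 11 rose and 2 fell, with the lysosomal master regulators TFE3 (1.55) and TFEB (1.38) and the autophagosome gene GABARAPL1 (1.45) among the higher, while 7 of 16 lysosomal genes rose and 7 fell (18 and 9 in both groups together, and 22 and 5 under total-count scaling).

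**Figure D3:**
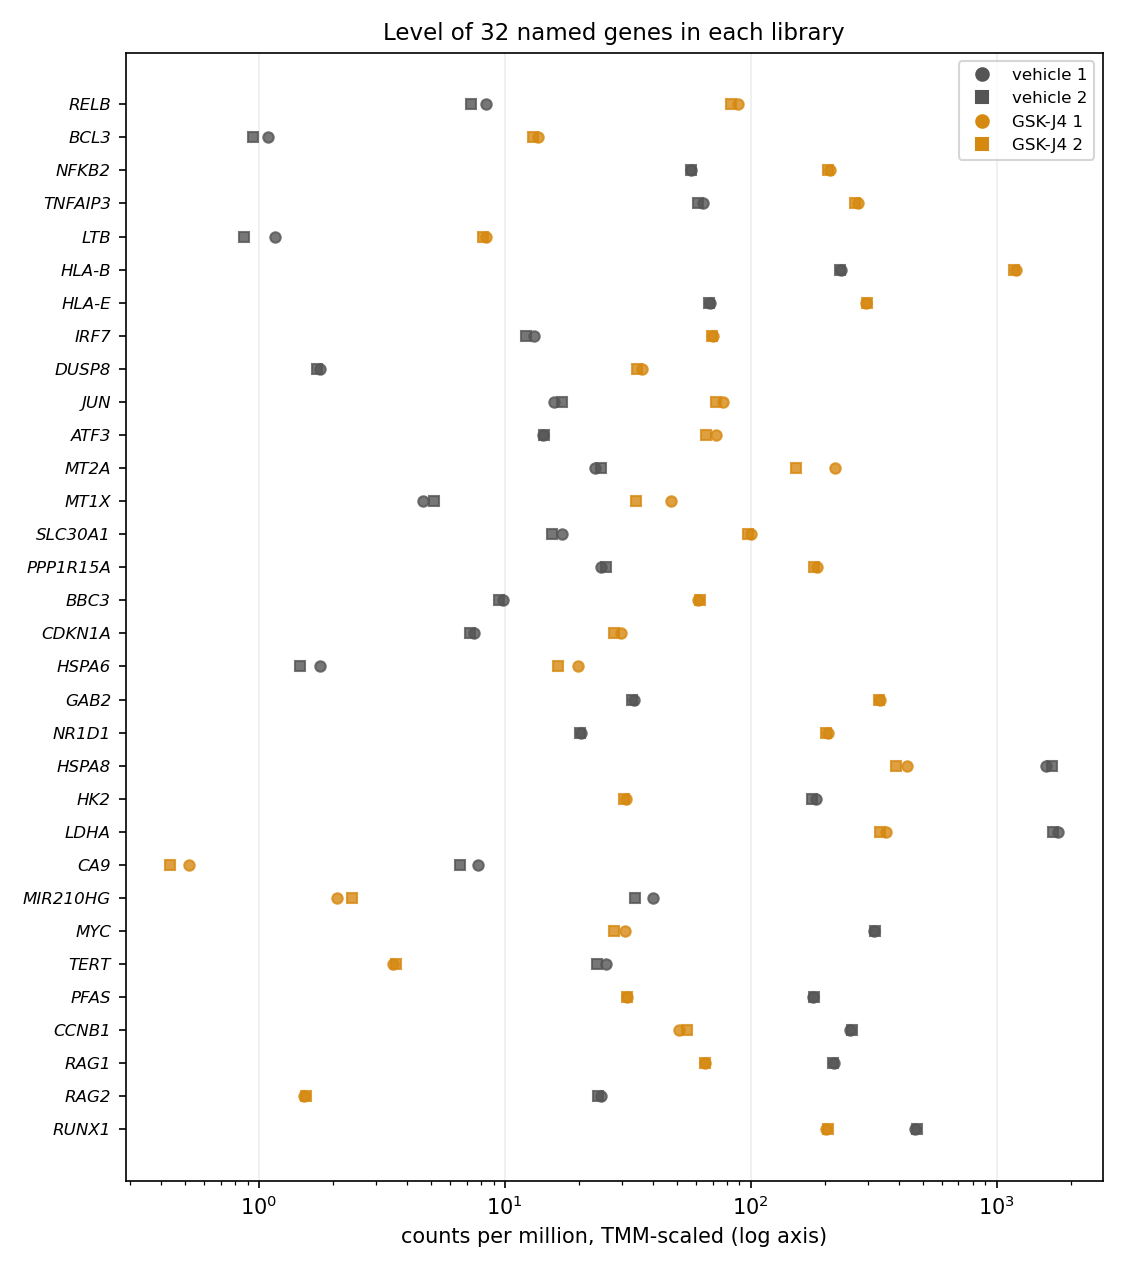
TMM-scaled CPM (x axis, log scale) of 32 named genes (rows) in each of the 4 libraries, vehicle in grey and GSK-J4 in orange, circles for replicate 1 and squares for replicate 2. Levels are to be compared within a gene only; in every row both drug libraries lie on the same side of both vehicle libraries.

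Glycolysis fell at almost every step. Of 24 tested genes, 21 were lower and 3 higher, with a median of -1.31. The glucose transporter gene SLC2A1 went from 170.2 and 162 to 45.4 and 44.3 CPM (-1.89), and hexokinase 2, HK2, from 184 and 177 to 31.2 and 30.6 CPM (-2.55, SE 0.038, edgeR adjusted p = 1.48e-14). At the end of the pathway LDHA, which makes lactate, was at 1779.9 and 1693 against 356 and 336 CPM (-2.33, SE 0.040, edgeR adjusted p = 6.32e-14), and the lactate exporter SLC16A3 fell by 2.51 on the log2 scale. Between them lay PFKFB4 (-2.20), ALDOC (-1.99), PGK1 (-1.94) and ENO1 (-1.92). The members that rose were the alternative transporter SLC2A3 (0.83), the neuronal enolase ENO2 (0.58) and PFKM (0.22), the muscle phosphofructokinase.

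The hypoxia response outside glycolysis fell with it, 20 of 25 genes lower and 5 higher, with a median of -0.74. HIF1 and its relatives are controlled by oxygen through prolyl hydroxylases of the same iron- and oxoglutarate-dependent kind as JmjC enzymes. MIR210HG, the host transcript of the hypoxia microRNA miR-210, was at 40.2 and 33.9 CPM with vehicle and 2.08 and 2.40 CPM with the drug (-4.04, SE 0.10, edgeR adjusted p = 1.38e-12). CA9, a carbonic anhydrase, was at 7.80 and 6.56 against 0.521 and 0.435 CPM (-3.89). ANKRD37 (-2.69), the mitophagy receptor BNIP3 (-2.26) and the hydroxylase gene EGLN3 (-1.88) were lower as well. The factor genes did not fall: HIF1A (0.20), EPAS1 (0.91) and ARNT (0.36) were higher.

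Mitochondrial sequences gave the largest falls in the data. The 15 largest falls by the naming rule were all nuclear pseudogenes of mitochondrial protein genes, copies of mitochondrial DNA inserted in the chromosomes. Of 57 such pseudogenes in the table, 24 were tested and 24 fell, with a median log2 fold change of -6.66 and a range of -8.55 to -4.50. This set was chosen after its values were seen. Some members passed the expression filter through the vehicle libraries alone, so for them a fall was fixed by the filter. Examples are MTCYBP35 (28 and 42 counts with vehicle, 0 and 0 with GSK-J4) and MTCO1P42 (10 and 14 against 0 and 0). The most abundant of the 24, MTCO1P12, stood at 9478 and 9624 CPM with vehicle and 69.9 and 63.2 CPM with GSK-J4 (-7.17, SE 0.054, edgeR adjusted p = 3.24e-17), and MTATP8P1 at 821 and 908 against 2.93 and 2.90 CPM (-8.21). All 57 together took 2.51% and 2.59% of counted reads in the vehicle libraries (95% Wilson intervals 2.507% to 2.515% and 2.581% to 2.589%, counting error only) and 0.0311% and 0.0277% in the drug libraries (0.0307% to 0.0315% and 0.0273% to 0.0281%). All 7 tested MTRNR2L genes, nuclear copies related to the large mitochondrial ribosomal RNA, fell as well, with a median of -2.80. MTRNR2L6 (15 and 20 against 6 and 5 counts) passed the filter through the vehicle libraries alone. Such copies can take reads of mitochondrial transcripts, which are not analysed here, so these values do not tell nuclear from mitochondrial origin.

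**Figure D4:**
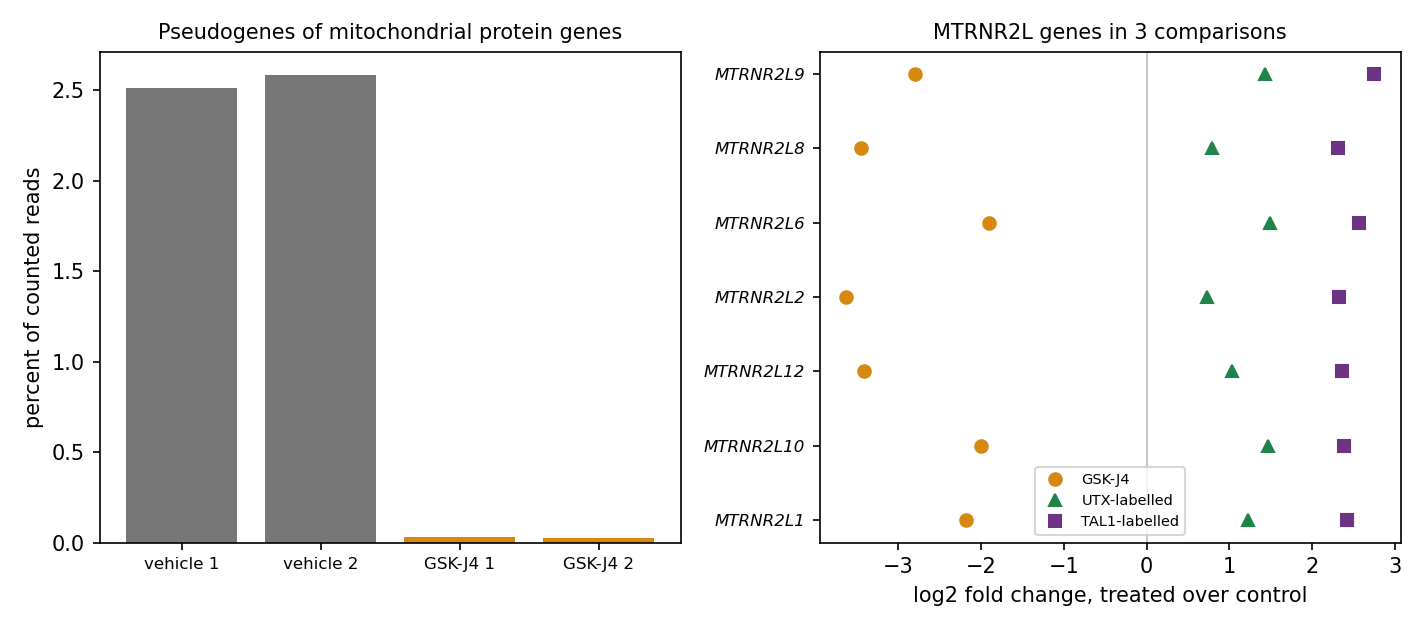
Left, percent of counted reads assigned to nuclear pseudogenes of mitochondrial protein genes (y axis) in each library: 2.51% and 2.59% with vehicle, 0.0311% and 0.0277% with GSK-J4. Right, log2 fold change (x axis) of 7 MTRNR2L genes (rows) with GSK-J4 (circles), in the UTX-labelled comparison (triangles) and in the TAL1-labelled comparison (squares), negative with GSK-J4 and positive in the other 2.

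Nuclear genes for mitochondrial functions fell far less. For the machinery that copies and reads mitochondrial DNA, 12 of 15 tested genes were lower and 3 higher: the helicase gene TWNK went from 47.1 and 46.5 to 16.4 and 13.7 CPM (-1.64), the RNA stabiliser LRPPRC had -1.22, TFB2M -1.21 and the packaging factor TFAM -0.36. Of 71 nuclear-encoded respiratory chain subunits, 50 fell and 14 rose, with a median of -0.31 and the lowest value at -0.99 (ATP5MC1), and of 74 mitochondrial ribosomal proteins 49 fell and 15 rose (38 and 26 under total-count scaling), with a median of -0.28.

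MYC, the transcription factor that drives growth and ribosome production, fell about 10.9-fold, from 317 and 320.5 to 30.8 and 27.9 CPM (-3.44, SE 0.044, edgeR adjusted p = 2.95e-15). The drug libraries were far below the vehicle libraries and did not overlap them. Of 8 tested genes of its antagonists and the related MLX branch, MXD1 (1.46), MXD3 (0.95) and MXI1 (0.34) rose and 5 fell, by at most 0.25 on the log2 scale (MGA). In the whole MYC network list 4 rose and 8 fell (4 and 3 under total-count scaling). Of 30 genes described as activated by MYC, 26 fell and 3 rose, with a median of -1.02. This list shares members with others, such as LDHA with glycolysis, HSPD1 and HSPE1 with chaperones and NCL with ribosome biogenesis. TERT, the catalytic subunit of telomerase, went from 25.8 and 23.7 to 3.50 and 3.61 CPM (-2.80), and C1QBP (-2.01) and ODC1 (-1.26), the first enzyme of polyamine synthesis, fell too. The members that rose were CDC25A (0.77), CCND2 (0.70) and IMPDH2 (0.16).

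Genes of ribosome production fell as well. All 35 tested processing and assembly factors of the ribosome biogenesis list fell, with a median of -1.13, among them NOP16 (-1.93), UTP20 (-1.77) and nucleolin, NCL (1523 and 1547 against 474 and 457 CPM, -1.72). In the RNA polymerase I group, POLR1B (-1.87), POLR1A (-1.54) and UBTF (-0.96) fell, RRN3 did not pass (0.08), and TAF1D rose (0.84). Cytosolic ribosomal protein genes changed by much less: 57 of 77 fell and 4 rose, with a median of -0.21 and no value below -0.55, and under total-count scaling 34 fell and 23 rose. The number that rose was 10 without the second GSK-J4 library, 0 without the second vehicle library and 1 without either of the others. Many of these genes have processed pseudogenes that can share reads.

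Biosynthetic genes were lower in several branches. In purine synthesis 9 of 11 fell, with PFAS at 179 and 181 against 31.5 and 31.3 CPM (-2.52, SE 0.035, edgeR adjusted p = 7.54e-15), ADSL at -1.86 and PAICS at -1.59. All 4 pyrimidine synthesis genes tested fell, between -1.19 (DHODH) and -0.44 (CAD), while 4 of 6 genes of deoxynucleotide supply rose, by at most 0.42 (TK1). Of 20 cytosolic aminoacyl-tRNA synthetase genes 14 fell and 4 rose, SARS (1.01) the most. In lipid synthesis 23 of 31 fell and 3 rose (19 and 7 under total-count scaling, and 1 and 0 rose without the first or second vehicle library), and those that fell included FASN, the fatty acid synthase (-1.71), LSS (-1.61) and HMGCS1 (-1.32) of the sterol pathway.

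The cell-cycle genes did not move as a block. Of 37 DNA replication genes 14 rose and 14 fell, with a median of 0.00, and under total-count scaling 24 rose and 7 fell. G2 and mitosis genes were lower on balance, 18 of 30 with 8 higher and a median of -0.43. CCNB1 (cyclin B1), which drives entry into mitosis, went from 254 and 259 to 51.2 and 55.3 CPM (-2.27, SE 0.041, edgeR adjusted p = 8.85e-14), and the kinase PLK1 from 239.7 and 238 to 84.6 and 91.6 CPM (-1.44), whereas CDK1, the kinase that cyclin B1 activates, had -0.25 and the proliferation marker MKI67 was higher (0.42). In G1, E2F2 rose (1.37) and CDK6 (-1.09) and E2F5 (-1.25) fell.

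Inhibitors of cyclin-dependent kinases rose, 5 of 6 tested. CDKN1A (p21) was at 7.52 and 7.23 CPM with vehicle and 29.6 and 27.8 CPM with the drug (1.96, SE 0.060, edgeR adjusted p = 7.93e-12), CDKN2D had 1.09, CDKN1C 1.04 and CDKN1B 0.66, and CDKN2C was lower (-0.42). Among genes of the response to DNA damage, DDB2, a damage sensor of nucleotide excision repair, stood at 56.1 and 56.5 CPM with vehicle and 208 and 209 CPM with the drug (1.89).

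Genes of cell death went in both directions. In the BCL2 family 9 of 16 rose and 6 fell (9 and 3 under total-count scaling). The BH3-only activator BBC3 (PUMA) went from 9.86 and 9.49 to 61.2 and 62.4 CPM (2.68, SE 0.047, edgeR adjusted p = 7.08e-14). HRK (1.51), BMF (1.27) and the effector BAK1 (1.31) rose too. BIK (-0.61), BID (-0.44) and BCL2L11 (-0.16) fell, so the BH3-only group was split 5 to 3. Of 5 tested survival genes 2 rose, BCL2 (0.23) among them, and 3 fell: BCL2L2 (-0.44), BCL2L1 (-0.30) and MCL1 (-0.12). Death receptor genes FAS (0.83), TNFRSF10A (0.82) and TNFRSF10B (0.61) were higher, and CASP8 (-0.52) and CASP6 (-0.92) lower.

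T-lineage identity genes shifted. TAL1, with LMO1, GATA3, RUNX1 and MYB, forms a regulatory core in the TAL1-positive form of this leukaemia. Of 11 tested core genes 8 fell and 2 rose (5 and 3 under total-count scaling, and 1 rose when either vehicle library was left out). RUNX1 stood at 467 and 474 CPM with vehicle and 202 and 206 CPM with GSK-J4 (-1.20, SE 0.032, edgeR adjusted p = 2.84e-12), LMO1 at 11.3 and 10.3 against 4.65 and 4.17 CPM (-1.28), and CBFA2T3 had -1.10. TAL1 (-0.66) and MYB (-0.62) fell less, and GATA3 rose (0.77). Of 13 described TAL1-activated genes 10 fell, ALDH1A2 among them (177 and 174 against 43.7 and 42.8 CPM, -2.02), and 2 rose, STAT5A (0.45) among them. Other lineage factors divided, with IKZF1 (-1.12), TCF7 (-1.09) and BCL11B (-0.96) lower and ZBTB7B (2.21), which directs the CD4 lineage, and TOX2 (2.19) higher. NOTCH1 had -0.39, and of 15 NOTCH receptors and targets 6 rose and 7 fell (7 and 6 under total-count scaling).

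The recombinase genes of immature thymocytes were strongly lower. RAG2 was at 24.6 and 23.8 CPM with vehicle and 1.52 and 1.56 CPM with the drug (-3.97, SE 0.077, edgeR adjusted p = 1.96e-13), and RAG1, its partner, at 218 and 215 against 65.2 and 65.5 CPM (-1.73, SE 0.033, edgeR adjusted p = 1.70e-13). DNTT, which adds bases at the joins, fell by 0.48, and PTCRA, the pre-T-cell receptor alpha chain, rose by 0.93 on the log2 scale. Of 19 tested recombination and thymocyte marker genes 14 fell and 5 rose (12 and 5 under total-count scaling). Among the 15 markers 11 fell and 4 rose. All 5 CD1 genes fell, between -1.23 and -0.93, as did CD8B (-1.63), which was low throughout (mean of 1.49 against 0.48 CPM). The thymic homing receptor CCR9 rose (6.62 and 6.29 against 28.8 and 28.1 CPM, 2.14). All 7 GIMAP genes, lymphocyte survival GTPases, were lower, with a median of -0.92. The T-cell receptor genes had 9 higher and 14 lower of 28 (15 and 12 under total-count scaling), CD3E at 0.12 and CD247 at -0.83. Among 20 homing genes 11 fell and 5 rose (7 and 8 under total-count scaling), with ITGA4, the integrin alpha-4 gene, at 299 and 309 against 81.7 and 85.5 CPM (-1.86).

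Several of the largest changes lay outside these lists. By the naming rule, the 15 largest rises included CDH3, a placental cadherin (0.114 and 0.211 to 2.00 and 2.53 CPM, 3.72), CPNE4 (3.62), LINC01749 (3.47), the zinc-finger gene ZNF467 (3.74 and 3.48 to 39.6 and 37.1 CPM, 3.42), NPR3 (3.32), DDO (3.32), CREB5 (3.31) and MAGEB18 (3.29). A pair of abundant genes stood out in reads: GAB2, a docking adaptor downstream of growth factor receptors, went from 33.6 and 33.0 to 336 and 332 CPM (3.33, SE 0.037, edgeR adjusted p = 6.64e-16), and NR1D1, the circadian repressor REV-ERB alpha, from 20.4 and 20.2 to 206 and 203 CPM (3.33, SE 0.038, edgeR adjusted p = 8.62e-16). The replicates of both lay close together. DCC, a netrin receptor gene, was counted 1 and 2 times with vehicle and 84 and 68 times with the drug, a ratio of 42.2 with a counting interval of 14.2 to 207.

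Of the falls outside pseudogenes, a set chosen after their values were seen, the largest were those of AC079466.1, a long non-coding RNA (129 and 125 to 2.49 and 1.95 CPM, -5.83, SE 0.066), and STC1, a hormone gene known to respond to hypoxia (113 and 131 counts against 5 and 1, -5.55). CYP2W1 (-5.40), GPR146 (17.9 and 17.9 to 0.885 and 0.870 CPM, -4.35), PRR22 (-4.15) and SUSD2 (-3.46) followed. SLC6A19, an amino acid transporter gene, went from 50 and 63 counts to 3 and 0, a ratio of 45.2 in the other direction with a counting interval of 15.1 to 222. Among abundant genes, also picked after their values were seen, IGLL1, a surrogate light chain gene of early lymphocytes, went from 49.0 and 45.2 to 5.66 and 5.28 CPM (-3.10, SE 0.062) and the kinase gene SYK from 151 and 153 to 35.0 and 32.1 CPM (-2.18, SE 0.042).

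The response was then set against that in the libraries labelled UTX-KD, the shRNA comparison aimed at a target of the drug. KDM6A mRNA was 32.5 and 32.9 CPM in UTX-control and 30.6 and 30.8 CPM in UTX-KD, a log2 fold change of -0.08 that did not pass (edgeR adjusted p = 0.103), so directions there are those of the labels. The interaction of treatment and comparison, fitted jointly over 8 libraries and so not exactly the subtraction of the separate fits, differed from 0 in 10628 of 18197 genes tested: the change was more positive with GSK-J4 in 5144 (28.3%) and more negative in 5484 (30.1%). Of 16619 genes tested in both, 7174 were called in both, 2853 higher and 2979 lower in each, 644 higher with GSK-J4 and lower in UTX-KD, and 698 the reverse. Across genes, which are not independent, Pearson's correlation of the 2 log2 fold changes was 0.56 over these 16619 genes.

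Glycolysis genes fell in both, 21 of 24 here and 22 there, with a median of -1.31 here and -0.78 there, and 19 of 24 members were more negative with GSK-J4. MYC had -3.44 here and -0.21 in the UTX-labelled comparison, a difference of -3.22 (SE 0.054, edgeR adjusted p = 3.97e-27). Ribosome biogenesis (-1.08 against -0.31) and chaperones (-1.05 against -0.29) were also deeper here, with 38 of 43 and 21 of 31 members more negative. The ATF4 list was raised more in UTX-KD: its median was 0.26 here and 0.81 there, and 25 of 34 members were more negative with GSK-J4. DNA replication genes had a median of 0.00 here and -0.31 there, with 28 of 37 more positive. Of the cytosolic ribosomal protein genes, 57 of 77 were lower here and 51 higher there, with 68 of 77 more negative with GSK-J4. MT2A showed opposite changes, 2.97 with GSK-J4 and -0.47 in UTX-KD (30.3 and 31.7 CPM to 22.9 and 21.5 CPM), a difference of 3.45 (SE 0.15, edgeR adjusted p = 1.41e-17). TKTL1, a transketolase-like gene, had 2.04 against -0.76, and MTRNR2L12 -3.42 against 1.03.

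**Figure D5:**
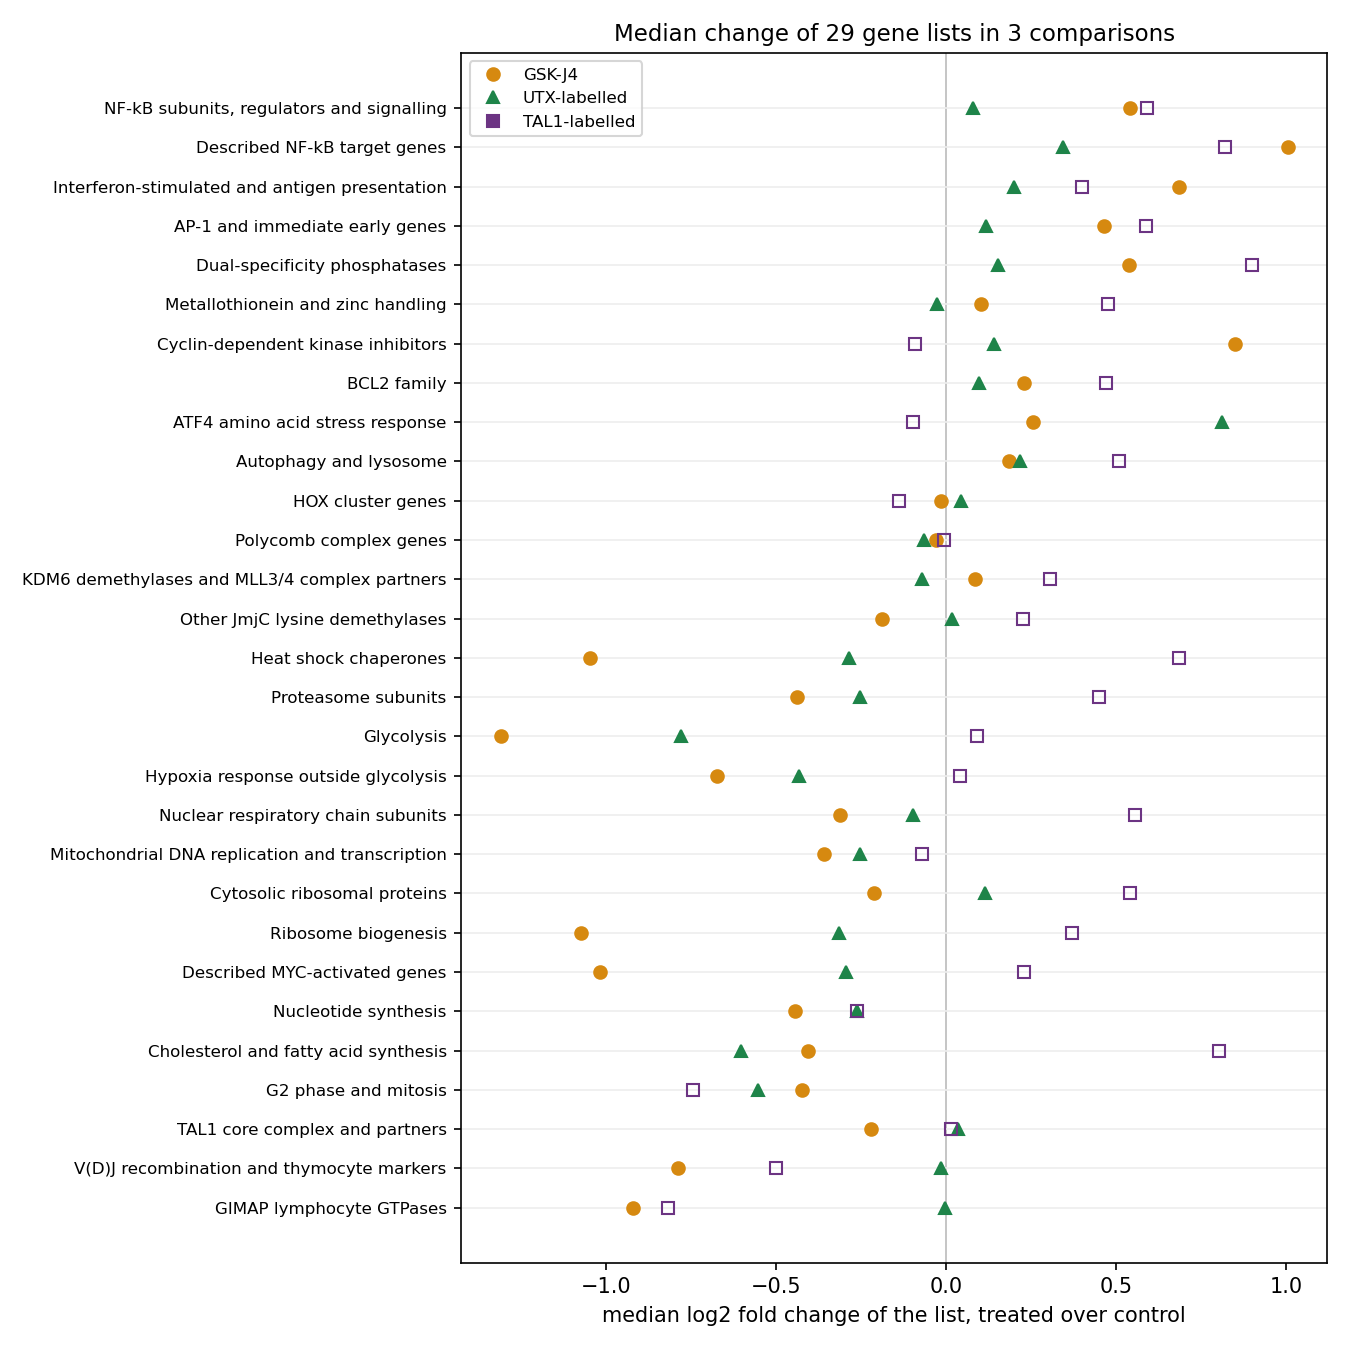
Median log2 fold change, treated over control (x axis), of 29 gene lists (rows) with GSK-J4 (orange circles), in the UTX-labelled comparison (green triangles) and in the TAL1-labelled comparison (open purple squares), over members tested in each pair of comparisons. Heat shock chaperones run from -1.05 with GSK-J4 through -0.29 to 0.68, and glycolysis from -1.31 through -0.78 to 0.09.

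In the TAL1-labelled comparison, TAL1 mRNA was 273 and 277 CPM in TAL1-control and 252 and 278 CPM in TAL1-KD (-0.07, edgeR adjusted p = 0.490), so here too directions are those of the labels. The change differed from that with GSK-J4 in 9810 of 18206 genes, more positive with the drug in 5019 (27.6%) and more negative in 4791 (26.3%). Of 7329 genes called in both, 2323 were higher and 2380 lower in each, 1311 were higher with GSK-J4 and lower in TAL1-KD, and 1315 the reverse, and Pearson's correlation across the 16573 genes tested in both was 0.29. NF-kB regulators had similar medians, 0.54 here and 0.59 there, but of 23 members 5 were more positive and 5 more negative with GSK-J4. RELB rose by 3.46 and 3.41, a difference of 0.02 (SE 0.12, edgeR adjusted p = 0.922) that did not pass. Chaperones, cytosolic ribosomal proteins, respiratory chain subunits and lipid synthesis genes mostly fell here and mostly rose there: 25 of 31, 59 of 77, 52 of 71 and 24 of 30 members were called higher in the TAL1-labelled comparison, with medians of 0.68, 0.54, 0.55 and 0.80. HSPA8 had -1.996 here and 1.40 there, a difference of -3.43 (SE 0.13, edgeR adjusted p = 5.4e-08). The GIMAP medians were close, -0.92 and -0.82, with 0 of 7 members more positive and 1 more negative with GSK-J4. The thymocyte medians were -0.79 and -0.50, with 5 of 19 members more positive and 10 more negative. Of genes with opposite calls and a mean count of at least 50, TKTL1 had the largest positive difference, 5.46 (SE 0.15, edgeR adjusted p = 2.14e-09), and MTRNR2L2 the largest negative one, -5.99 (SE 0.11, edgeR adjusted p = 2.33e-10).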

How the data were processed

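RNA-seq was measured in 12 Jurkat libraries, of which the 4 of the GSK-J4 comparison were fitted alone. The deposited values used here are raw read counts per gene, which the authors made with TopHat2 2.0.12 and HTSeq 0.6.1p1 on hg19 according to the submitters' processing notes. These notes also name DESeq2, and the deposited fold changes and p-values were not used. No hg19 annotation was used, so no gene coordinates are given; promoters come from RefSeq GRCh38.p14. GENCODE 29 symbols were found for 29137 of 30716 gene IDs.

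Genes were filtered with filterByExpr, scaled by TMM and tested two-sided with edgeR 4.0.16 (R 4.3.3), by the quasi-likelihood test with Benjamini-Hochberg adjustment over all genes tested and a threshold of 0.05. Genes with almost no reads in a group, such as MT1E, CXCL10, HMOX1 and HOXB5, could pass the filter through the other group alone. Their direction was then fixed by the filter, and list counts include them. Standard errors were derived from the F statistic. Differences between comparisons are interaction terms over 8 libraries. The procedure was first run on simulated counts of 17573 genes. It recovered 51 of 67 changes of 1.25-fold, 64 of 67 of 1.5-fold and 66 of 66 of 2-fold. The changed genes were drawn from those with a mean count of at least 50, so recovery at lower counts was not examined. Only a small share of genes changed there, unlike in these data, so that run does not test the scaling or false calls in this setting. DESeq2 1.42.0, other scalings, filters and thresholds, a replicate block, a fit of all 12 libraries and omission of each library were tried as alternatives. Total counts ran from 55524079 to 75547934 per library, and the precision of the fits depends also on the spread between libraries. Intervals on shares and ratios cover counting error only.

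The comparison and the 53 gene lists were chosen with earlier results of these data known, so list counts are descriptions. Of 1274 list entries, 1251 matched by symbol and 23 did not. Lists overlap, and a gene that belongs to several is counted in each. The naming rule took the 15 largest changes in each direction with a mean normalised count of at least 50, up to 6 called members of a list, 5 differences per direction, and KDM6A, KDM6B, UTY, TAL1 and MYC. Other list members, abundant genes, the sets of nuclear copies of mitochondrial genes and falls outside pseudogenes were chosen after their values were seen. Results for some genes are not reported here.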

Additional observations from a re-analysis of the deposited data

Results flagged for a closer look

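Each gene below was called in opposite directions with GSK-J4 and in a labelled knockdown comparison, and the difference of the log2 fold changes passed edgeR's quasi-likelihood test over 8 libraries. Against the UTX-labelled comparison, the change of AC107871.1 was more positive with GSK-J4 by 3.60 (adjusted p = 8.58e-10), that of MT2A by 3.45 (adjusted p = 1.41e-17) and that of MYO5B, a myosin motor gene, by 3.10 (adjusted p = 9.88e-09). AC107871.1 was at 0.486 and 0.496 CPM in UTX-control and 0.257 and 0.180 CPM in UTX-KD. MYO5B was at 0.46 and 0.55 against 0.19 and 0.23 CPM, so the differences of both genes rest on few reads there. In the other direction the differences were -4.43 for MTRNR2L12, -4.35 for MTRNR2L2 and -4.23 for MTRNR2L8.

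Against the TAL1-labelled comparison, the differences were 5.46 for TKTL1, 5.43 for GDAP1L1 and 4.60 for FOXN4 (SE 0.76, adjusted p = 0.000478). FOXN4 was at 0.299 and 0.157 CPM in TAL1-control and 0.0365 and 0 CPM in TAL1-KD, so the size of its difference rests on almost no reads there and depends on the prior count. TKTL1 was at 10.8 and 10.9 CPM in TAL1-control and 1.02 and 0.984 CPM in TAL1-KD. The differences were -5.99 for MTRNR2L2, -5.81 for MTRNR2L12 and -5.78 for MTRNR2L8. MTRNR2L2 was at 304 and 323 CPM in TAL1-control and 1517 and 1681 CPM in TAL1-KD. The MTRNR2L genes are alike in sequence and can share reads, so their values are not independent.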

How the results depend on the processing

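The counts of 6794 higher and 6616 lower genes stayed within 1.5 times of these values under each alternative run except the fold minimum of 1 log2 unit, which by its construction left 1770 and 1618. DESeq2's Wald test gave 5573 higher and 5705 lower genes. Total-count scaling gave 8652 and 4947, and 48 genes changed their called direction under it. Leaving out each library in turn gave 6056 to 6660 higher and 6002 to 6656 lower genes, 9629 to 10364 genes differing from the UTX-labelled comparison and 8111 to 11642 differing from the TAL1-labelled one. Removing the mitochondrial pseudogenes before scaling, an alternative chosen after seeing the data, gave 6788 and 6602.

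With the replicate number as a block, 6829 genes were higher and 6659 lower, 10534 differed from the UTX-labelled comparison and 9821 from the TAL1-labelled one. The labels do not say that a number marks a shared culture or day, and same-numbered libraries did not deviate together (correlation of deviations -0.04 over 14103 genes), so no pairing was assumed.

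Of 4819 values of genes taken by the naming rule or as large falls, under alternatives other than the fold minimum, 4812 kept direction and call. The other 7 lost the call, in 4 genes, and 0 reversed. Most of these genes were taken for their large changes, so this outcome was largely fixed by the choice. It does not cover the smaller changes given above, such as those of WDR5, IKBKB and MCL1. Of 1484 list counts, 64 moved by over 1.5 times, 25 of them under total-count scaling. Groups of 2 libraries, 1 dose and 1 time limit what can be said, and genes with few reads in a group have folds that depend on the prior count.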

Other observations

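Of 8 tested telomerase and shelterin genes, TERT included, 4 rose and 2 fell, with a median of 0.18. Beside TERT (-2.80), DKC1, which encodes the dyskerin subunit of telomerase, fell (-1.36), and the shelterin genes ACD (0.78), TERF2IP (0.64), TERF2 (0.30) and TERF1 (0.28) rose.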
